A study of Caenorhabditis elegans with 4 samples.

Results

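Chromosome III held 402 of the 2261 regions (17.8%) at which the transcription factor MAB-5 was listed as bound in *Caenorhabditis elegans* larvae. They were all entries of the combined region list that named this chromosome, so position alone, and no measured value, put them in the set. Chromosome III also carries Hox genes of the worm, mab-5 itself among them. The strongest region of the whole combined list lay here, though in the replicate 1 list other chromosomes held stronger ones. The 4 longest runs of closely spaced regions on the chromosome fell together within 272.7 kb that include this strongest region.

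Hox proteins are homeodomain transcription factors that give cells their identity along the body axis. In the worm, ceh-13 acts at the front, lin-39 in the mid-body, mab-5 towards the rear, and egl-5 with the paired genes php-3 and nob-1 in the tail. MAB-5 directs the posterior migration of neuroblast descendants and the fates of posterior epidermal and mesodermal cells. Hox proteins are also known to act on the expression of Hox genes.

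Binding was measured by chromatin immunoprecipitation and sequencing (ChIP-seq) in hermaphrodites at the second larval stage (L2), grown at 20 °C and fixed with 2% formaldehyde. Every sample came from strain OP27, which carries the ed3 allele of unc-119 and the transgene wgIs27, made by bombardment. The transgene holds mab-5 tagged with TY1, EGFP and FLAG beside an unc-119 gene, and the tagged protein was precipitated through GFP. The labels list no mutation of the chromosomal mab-5. The series had 2 ChIP samples and 2 input samples of unprecipitated chromatin, with 1 region list analysed for each ChIP sample and 1 combined list, and none of the input samples analysed here. Chromatin came from whole animals, so few cells with strong binding and many with weak binding cannot be told apart.

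Each entry gave a start, an end and the authors' q value, with no read count, height or fold enrichment, so the depth of the libraries is unknown. Strength below means −log10 of the q value, a measure of significance and not of the amount of bound protein. The labels did not say whether the replicates were separate cultures, and all tests compare regions within these lists, which are not replicates of a condition. Per the file headers, positions refer to WormBase build WS180. Without its sequence or annotation here, regions are named by position and assigned to no gene.

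The strongest region, chromosome III 7777990 to 7784696, had a strength of 241 in the combined list. It was 6707 bp wide, and its strength was 3.10 times that of the next region on the chromosome. The replicate 2 list held the same entry with the same strength, whereas the strongest replicate 1 entry inside it had a strength of 44.9. This was still the first rank on the chromosome in every list. Over all chromosomes it was first in the combined and replicate 2 lists only. In replicate 1 the strongest regions of chromosomes II and IV were stronger, at 49.3 and 53.6.

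Inside this stretch both replicate lists resolved 4 narrower sites, which together give its inner layout. The first site was listed at 7778371 to 7778898 in replicate 1, with a strength of 9.92, and at 7778389 to 7778906 in replicate 2, with a strength of 5.25. The second, the widest, ran from 7779116 to 7781211 in replicate 1 (strength 44.9) and from 7779362 to 7781160 in replicate 2 (strength 34.8). In both lists this site stood far above the first. The third had strengths of 10.3 in replicate 1, at 7781416 to 7782082, and 5.26 in replicate 2, at 7781536 to 7782098. The last lay at 7783980 to 7784674 in replicate 1 (strength 33.5) and at 7783981 to 7784653 in replicate 2 (strength 34.8). The second and last sites were thus the strong ones in both lists. By these values the last site was the only one of the 4 that was weaker in replicate 1. The lists were not treated alike, since the wide replicate 2 entry was left out. Replicate 1 also listed narrower entries in the first, second and last sites, with strengths of 4.98, 18.7 and 15.7. Each of these was weaker than the replicate 2 entry given for its site. Replicate 1 centres lay from −97.5 to 10 bp from those of replicate 2, and the 4 replicate 1 sites covered 59.4% of the wide region.

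The strongest region belonged to the longest run on the chromosome, in which 10 regions followed each other with gaps of at most 5000 bp, from 7765919 to 7793253. Of the 9 others, 4 were found in both replicate lists by an overlap of at least 1 bp. Those at 7789078 to 7789850 and 7790436 to 7790941 had strengths of 18.6 and 18.3 in the combined list, and of 7.90 and 8.18 in replicate 1. Those at 7770978 to 7771474 and 7792884 to 7793253 had combined strengths of 13.2 and 12.2, and replicate 1 strengths of 10.2 and 5.11. The 5 found in replicate 2 alone were weaker, with combined strengths from 5.01 to 7.43. Regions missing from replicate 1 were therefore the weak ones of the run.

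A further 3 runs of at least 5 regions lay upstream in coordinate order, and chromosome III had no other run of that size. The first, from 7520603 to 7536858, held 8 regions in 16.3 kb. Of these, 3 were in both replicate lists, and 1 stood out with a strength of 31.9, at 7534442 to 7535652. It was also the strongest of the run in replicate 1, at 13.2, and the other 7 had combined strengths from 4.23 to 7.86.

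The next run, from 7544165 to 7560116, held 6 regions in 16.0 kb, 4 of them in both replicate lists. Its strongest region, at 7554534 to 7555214, had a strength of 52.1 in the combined list and 20.8 in replicate 1. Lower in coordinate lay regions at 7552779 to 7553203 and, first in the run, at 7544165 to 7544485, with combined strengths of 14.1 and 14.4 and replicate 1 strengths of 5.55 and 7.16. On the other side the run held weak regions only, at 7556397 to 7556809 (strength 3.74), in neither replicate list, and at 7559749 to 7560116 (strength 6.31), in replicate 2 alone.

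The third run was unlike the others in having no strong region. From 7720824 to 7731335 it held 6 regions in 10.5 kb with strengths from 3.80 to 8.18, and 1 of them, at 7729190 to 7730206, was in both replicate lists. Between the second and the third run lay 3 single regions with strengths from 3.73 to 6.23, and the longest gap there, 129.0 kb, ran from 7580978 to 7710017. After the last run, 61.1 kb passed before the next region, at 7854392 to 7854796, which was again strong, with 37.5 in the combined list and 18.0 in replicate 1.

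**Figure D1:**
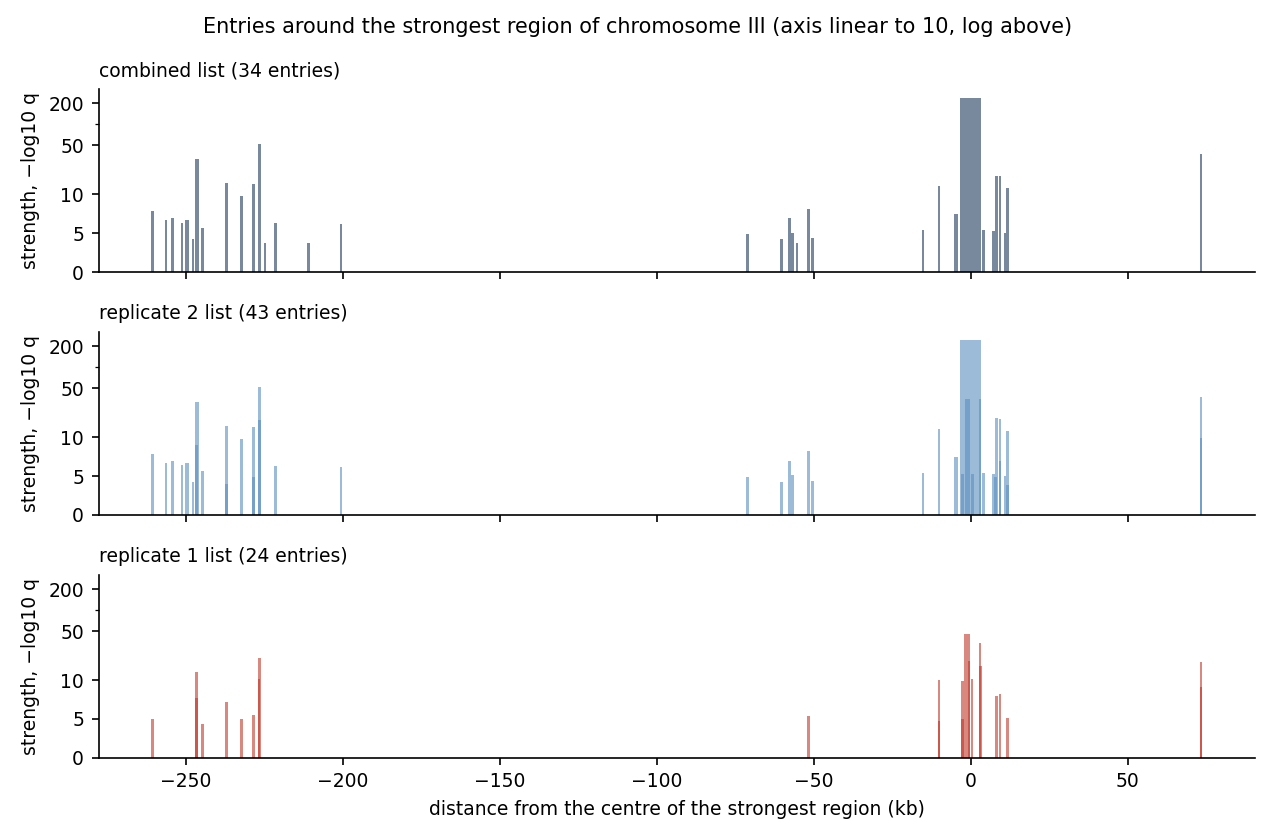
Entries of the combined, replicate 2 and replicate 1 lists plotted by distance (kb) from the centre of the strongest region, with bar height giving strength (−log10 q, linear to 10 and log above) and bar width the entry's width, drawn no narrower than 0.8 kb so that it shows. The wide entry of strength 241 stands in the combined and replicate 2 lists, and in replicate 1 the same place holds separate sites of at most 44.9.

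From the first base of these runs to the last, 272.7 kb or 1.99% of the listed span held 33 of the 402 regions (8.21%). Of the 33, 13 (39.4%) were found in both replicate lists, against 36.1% over the chromosome. Their median strength was 6.67, against 6.70 over all 402, so the stretch, chosen by its short gaps, was dense in regions without being strong throughout. Over all chromosomes there were 12 runs of at least 5 regions, 4 of them on chromosome III and 8 on the other 5 chromosomes. Chromosome II came closest, with 3 such runs that held 32 regions, the longest of 16, against 30 regions and a longest run of 10 on chromosome III. In the replicate 1 list alone 1 such run was left on chromosome III, with 7 regions from 7778371 to 7793222.

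The gene table at hand was of another build, WBcel235, and was used for gene order only. In it, lin-39 and ceh-13 were direct neighbours among protein-coding genes on chromosome III. Another 37 protein-coding genes followed before mab-5, and 1, cyk-7, stood between mab-5 and egl-5. The adjacent pair php-3 and nob-1 came 894 protein-coding genes further on. The runs were not placed against these genes, and the strain carries mab-5 DNA in its transgene as well. The part of the transgene in the signal was not tested.

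Strong regions also stood far from this stretch, which held 3 of the 20 strongest. The 20 with the smallest q values had combined strengths from 31.5 to 241, and all 20 overlapped an entry in both replicate lists. Their strengths in replicate 2 were those of the combined list. Ranked by strength within chromosome III, 17 of the 20 were also among the first 20 of replicate 1, and the lowest rank there was 25. The region ranked next, just outside the 20, had a strength of 30.5. Of the 100 strongest regions of all chromosomes 22 lay on chromosome III, as did 10 of the 30 strongest, beside its 17.8% of the list. These shares were not tested.

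The second strongest region of the chromosome, at 4281791 to 4282724, had a strength of 77.8 in the combined and replicate 2 lists and 36.8 in replicate 1. The third, at 8416967 to 8417890, had 66.1 and 35.0. The fourth, at 8799732 to 8800694, had 65.1 in the combined list and 27.7 in replicate 1. These held ranks 2, 3 and 6 on the chromosome in replicate 1, close to their order in the combined list.

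The fifth, at 10758904 to 10759359, was narrow for its strength, 456 bp wide with strengths of 57.2 in the combined list and 27.9 in replicate 1. Also narrow was the region at 3867332 to 3867757, 426 bp wide, with 50.2 and 23.7. By contrast the region at 12612197 to 12613809 spread over 1613 bp with 43.0 and 24.2. Of the 20 strongest, 8 were at least 1000 bp wide, against 27 of all 402 (6.72%), and their median width was 929 bp.

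Some of the strongest regions came as close pairs. Those at 1920726 to 1921782 and 1924875 to 1925727 had combined strengths of 41.8 and 45.8 and replicate 1 strengths of 21.4 and 22.5. They belonged to a run of 4 regions, from 1920726 to 1926860, and all 4 were in both replicate lists with combined strengths of at least 16.6. Another close pair lay at 12425577 to 12426899 and 12427349 to 12428460, with combined strengths of 33.4 and 42.3 and replicate 1 strengths of 13.3 and 20.6. The gap between them was 449 bp.

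The remaining members of the 20 are given here by position and combined strength, followed by that in replicate 1. The region at 1618858 to 1619337 had strengths of 44.0 and 22.95. The region at 10904116 to 10905567 had 40.3 and 22.8, and that at 12904859 to 12905273 had 34.6 and 18.7. All of these were at most 1452 bp wide. The region at 8873835 to 8874864 had 34.1 and 16.04, and the region at 13643371 to 13643907 had 33.2 and 14.8. The last of the 20, at 4899620 to 4900111, had 31.5 and 18.9. In each of the 20 the replicate 1 strength was lower than that of the replicate 2 entry identical to the combined one. Against the strongest other replicate 2 entry there, with strengths from 7.74 to 34.8, it was higher in all 20. Here the strongest replicate 1 entry was set against a weaker replicate 2 entry, so the lists were not treated alike.

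**Figure D2:**
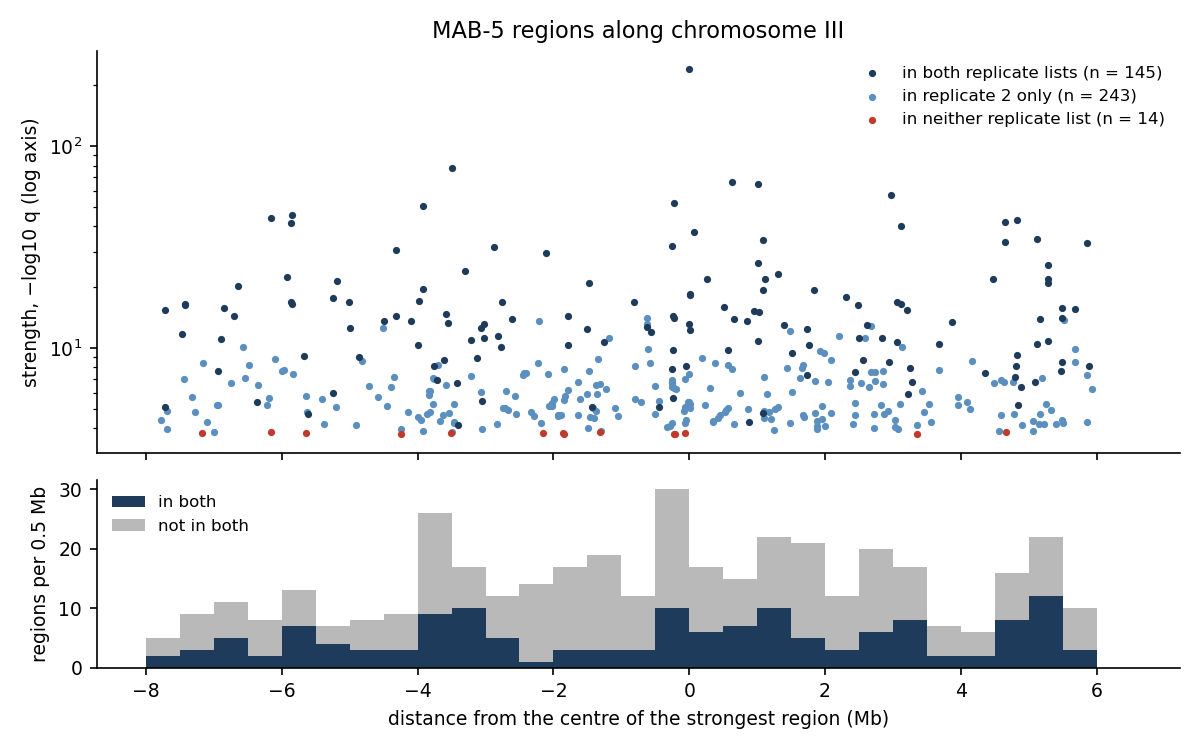
Upper panel, the 402 regions of chromosome III by distance (Mb) from the centre of the strongest region and by strength (−log10 q, log axis), coloured by the replicate lists that hold them; lower panel, regions per 0.5 Mb. Regions found in both lists (145) make up most of the strong ones, and the 14 found in neither lie at the lower edge.

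Besides the run from 1920726 to 1926860, chromosome III had 3 other runs of 4 regions. The run of 4 regions from 8795353 to 8802668 had combined strengths from 10.8 to 65.1, and that from 13060910 to 13070961 had strengths from 10.8 to 25.8. All regions of both runs were in both replicate lists. Of the run of 4 from 13268715 to 13276209, with strengths from 4.39 to 15.7, 3 regions were in both.

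Over the whole chromosome, 175 of the 402 regions (43.5%) had another region within 5 kb, and 227 stood alone. Elsewhere 736 of 1859 (39.6%) had such a neighbour. On chromosome III the share was highest among the strongest regions. Regions were divided into 5 strength classes at limits that split all 2261 regions evenly. In the strongest class 55 of 93 regions of chromosome III had such a neighbour, or 59.1% (exact Clopper-Pearson 95% interval 48.5 to 69.2%). On the other chromosomes 157 of 360 did, or 43.6% (38.4 to 48.9%). In the weaker classes the shares on chromosome III ran from 33.3 to 43.4%, with no steady rise, and elsewhere from 35.3 to 42.6%. The difference in the strongest class was seen in the data and was not tested. Of the 20 strongest regions, 16 had a neighbour within 5 kb.

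Whether regions were spaced more closely on chromosome III than elsewhere depended on the limit and the list. It had 401 gaps, and 106 of them did not exceed 5000 bp. This share of 26.4% (exact 95% interval 22.2 to 31.0%) compares with 23.7% on the other 5 chromosomes and 24.2% over all 2255 gaps. The two-sided Fisher exact test, with Benjamini-Hochberg adjustment over 6 chromosomes, gave an adjusted p of 0.371. At 2000 bp, 73 gaps (18.2%) were that short, against 12.8% elsewhere, with an adjusted p of 0.0388. In the replicate 1 list alone 36 of 148 gaps (24.3%) were 5000 bp or shorter, against 11.6% elsewhere, with an adjusted p of 0.00109, whereas the replicate 2 list alone gave 25.6% against 23.3% with an adjusted p of 0.534. Neighbouring gaps share a region and are not independent, which the Fisher exact test does not allow for, so these p values only describe the lists.

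The stretch of the 4 runs held 26 of the 106 short gaps of the combined list and 10 of the 36 short gaps of replicate 1. Since short gaps of the combined list define the runs, the count of 26 follows from how the stretch was chosen. Outside the stretch the shares on chromosome III were 21.7% and 19.5%. Runs on the other chromosomes were not left out in the same way, so these shares have no like counterpart there. Chromosome III also had more regions per length than any other, with 29.3 per Mb of listed span against 18.5 to 23.96 elsewhere, and in replicate 1 10.9 distinct regions per Mb against 4.88 to 8.42. More regions in a given length leave shorter gaps, and the part of density in the share of short gaps was not tested. The longest gap of the chromosome, 244.4 kb, ran from 6727446 to 6971854.

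**Figure D3:**
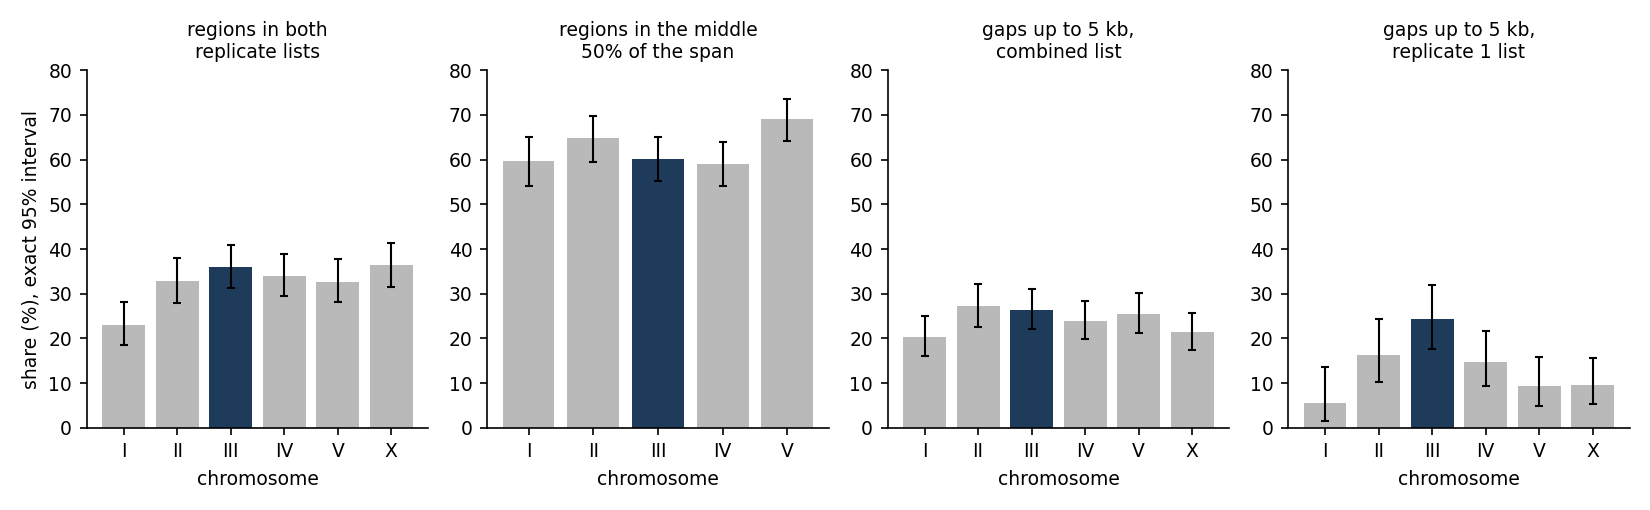
Share (%) per chromosome of regions in both replicate lists, of regions in the middle 50% of the listed span (autosomes), and of gaps up to 5 kb in the combined and in the replicate 1 list, with exact 95% binomial intervals as error bars. Chromosome III, in dark, lies among the others in the first 3 panels and is the highest, at 24.3%, in the last.

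The replicate lists were compared to see how far the regions of chromosome III recurred. Of the 402 regions, 145 overlapped an entry of both lists, a share of 36.1% with an exact 95% interval from 31.4 to 41.0%. Elsewhere 598 of 1859 did (32.2%), and over the whole list 32.9%. Without the replicate 2 entries that are identical to combined ones the share was 19.4% (78 of 402), against 18.8% elsewhere. With all entries kept, the difference of 3.90 percentage points between 36.1% and 32.2% had an adjusted two-sided Fisher exact p of 0.286 over 6 chromosomes. A further 243 (60.4%) overlapped replicate 2 alone and 14 (3.48%) overlapped neither. No region overlapped replicate 1 alone (upper limit of the exact 95% interval 0.913%). Since 388 of the 402 regions stood unchanged in the replicate 2 list, this count was largely fixed beforehand.

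Seen from the replicate lists, every replicate 1 entry on chromosome III overlapped a replicate 2 entry. All 201 entries, which join into 149 distinct regions where they overlap, met an entry of replicate 2 (exact 95% interval of the distinct regions 97.6 to 100%). On the other chromosomes 769 of 775 did (99.2%). The replicate 2 list on chromosome III holds 388 entries identical to combined ones, called from reads that are not known. The share of replicate 1 entries thus need not show recurrence in an independent replicate, and it was not computed without those entries. In the other direction 145 of the 388 distinct replicate 2 regions were found in replicate 1, or 37.4% (32.5 to 42.4%), against 33.2% elsewhere and 34.0% over all 2187. The adjusted Fisher exact p was 0.249. Without the identical entries the share was 82.7% against 59.4% elsewhere, with an adjusted Fisher exact p of 1.55e-05, but the entries left to compare then differed between chromosomes, as given with the identical entries.

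The share found in both replicate lists rose with strength on chromosome III and elsewhere. In the weakest strength class 2 of 69 regions (2.90%) were in both replicate lists, in the next 8 of 87 (9.20%), in the third 10 of 76 (13.2%), in the fourth 39 of 77 (50.6%), and in the strongest 86 of 93 (92.5%, exact 95% interval 85.1 to 96.9%). On the other chromosomes the shares in the same classes, from weakest to strongest, were 1.05, 3.85, 12.96, 49.9 and 95.6%. The gap in the second class, 9.20% against 3.85%, was not tested. The strongest region of chromosome III that was missing from replicate 1 lay at 7155450 to 7156020, with a strength of 14.1 and rank 69 on the chromosome. A second one lay beside it, at 7153703 to 7154141, with a strength of 13.2. At the other end, the weakest region in both lists had a q value of 7.51e-05. The 14 absent from both lists lay at the weak end, their q values between 0.000153 and 0.000189, and 2 of them, at 7556397 to 7556809 and 7725671 to 7726379, belonged to the runs near the strongest region.

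**Figure D4:**
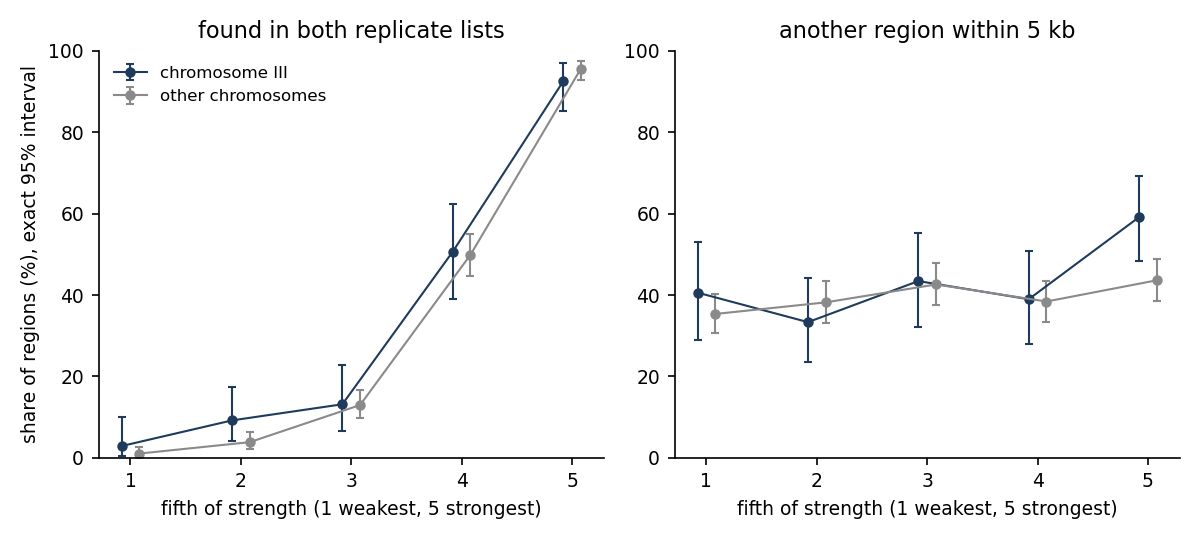
Share (%) of regions found in both replicate lists (left) and with another region within 5 kb (right), by strength class from weakest to strongest, for chromosome III and for the other chromosomes, with exact 95% binomial intervals. The left curves rise to 92.5% and 95.6%; on the right the strongest class of chromosome III stands at 59.1% and that of the other chromosomes at 43.6%.

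The replicate 2 list and the combined list were not independent on chromosome III. All 388 combined regions that overlapped replicate 2 stood in it unchanged in start, end and q value, and the 14 others were the ones in neither replicate. On the other chromosomes 1522 of 1859 combined regions (81.9%) were identical, and 269 overlapped replicate 2 without being identical. The replicate 2 list held 98 more entries on chromosome III, and each overlapped an identical one. Elsewhere 314 of 644 such entries did. These further entries had a median strength of 5.56 on chromosome III. No source used here tells from which reads the identical entries were called, so the strengths of replicate 2 may not rest on replicate 2 alone.

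Double listing went with strength. In replicate 1, 52 of the 149 distinct regions (34.9%) were made of 2 entries, with a median strength of 11.9 against 5.20 for those listed once. In replicate 2, 95 of 388 (24.5%) had more than 1 entry, with medians of 16.6 and 5.68. A joined region took the strength of its strongest entry, so joining itself favours the higher medians. The size of that effect was not tested. On the other chromosomes the shares with more than 1 entry were 27.3% in replicate 1 and 20.3% in replicate 2. The differences were not tested. All 20 of the strongest regions had a second replicate 2 entry, not identical to the combined one. For the region at 4281791 to 4282724 this entry had a strength of 23.2, beside 77.8 for the identical one, and the replicate 1 entries had strengths of 36.8 and 15.8. For the region at 7554534 to 7555214 the values were 17.8 beside 52.1 in replicate 2, and 20.8 and 10.2 in replicate 1.

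Strengths of regions that paired between the replicate lists, each overlapping only the other, rose together. The strongest region met 4 distinct replicate 1 regions and that at 12425577 to 12426899 met 2, so neither was among the pairs. Over 143 pairs of distinct regions on chromosome III, Spearman's rho between the strengths was 0.861 and Pearson's r 0.958. Without the 2 pairs farthest from the median in replicate 2, r was 0.944. The pairs are regions of the same libraries and not replicates, so this is a description. The replicate 2 strengths here include those of identical entries, which may not rest on replicate 2 alone. The centres of paired regions were a median of 22 bp apart, and in 129 of the 143 pairs (90.2%) at most 100 bp.

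The direction of the difference between the replicates changed when the identical entries were left out of replicate 2 alone. Replicate 1 had the lower strength in 139 of the 143 pairs, and the median of its strength over that of replicate 2 was 0.520 (interquartile range 0.446 to 0.604). Leaving the identical entries out of replicate 2, an alternative added after seeing the data, kept 80 pairs. In 70 of these the replicate 1 strength was the higher, with a median ratio of 1.46. Pearson's r was then 0.903 and Spearman's rho 0.713. That comparison treated the lists unequally, since replicate 1 kept its strongest entry at each region while replicate 2 lost its identical one. No statement on which replicate bound more strongly follows from either ratio.

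**Figure D5:**
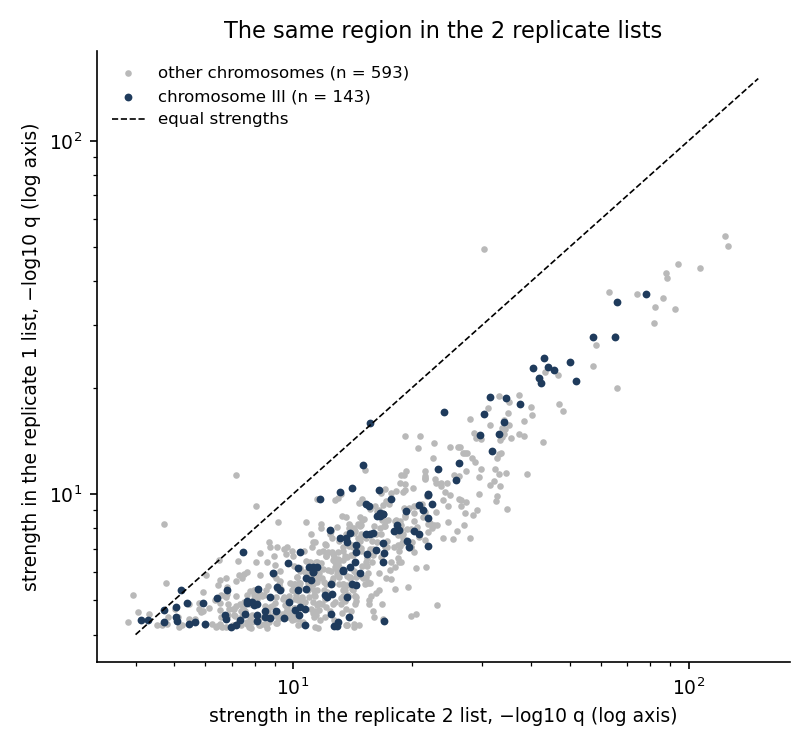
Strength (−log10 q, log axes) of the same distinct region in the replicate 2 list (horizontal) and the replicate 1 list (vertical), for 143 pairs on chromosome III and 593 on other chromosomes. On chromosome III 139 pairs lie under the dashed line of equal strengths. The strongest region of chromosome III is not among the pairs.

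Along the chromosome, regions were spread over the whole listed span of 13.7 Mb, from 6674 to 13713149. Per Mb they numbered from 16, between 2 and 3 Mb, to 48, between 7 and 8 Mb, where the strongest region lay. The middle 50% of the span held 242 of the 402 centres, or 60.2% (exact 95% interval 55.2 to 65.0%). The other autosomes together had 63.2%, and all autosomes 62.6%. The adjusted two-sided Fisher exact p over 5 autosomes was 0.337.

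Recurrence varied along the chromosome, and the examples given first come from the high and low ends of 14 bins of 1 Mb. Between 4 and 5 Mb, 17 of 34 regions (50.0%) were in both replicate lists, and between 12 and 13 Mb 14 of 28 (50.0%). Between 5 and 6 Mb only 6 of 35 (17.1%) were, and between 6 and 7 Mb 5 of 27 (18.5%). To the left of the middle 50% of the span, 26 of 63 were in both (41.3%, 29.0 to 54.4%), within it 79 of 242 (32.6%, 26.8 to 38.9%) and to its right 40 of 97 (41.2%, 31.3 to 51.7%). The intervals overlap. Median strengths moved the same way, with 7.07, 6.34 and 6.97. A lower share within the middle than outside it was not particular to chromosome III. It was also seen on chromosomes I (20.1 against 27.3%), IV (30.5 against 39.3%) and V (30.5 against 37.8%). Chromosome II went the other way (33.8 against 31.1%). These shares were looked at after the data had been seen and were not tested.

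In size and strength the 402 regions were close to the rest. Widths had a median of 404 bp and an interquartile range from 329 to 585 bp, against a median of 423 bp on the other chromosomes, and together they covered 206418 bp. Their median strength was 6.70 (4.81 to 11.2), against 6.43 (4.67 to 10.4) elsewhere. Stronger regions were wider, with a Spearman's rho of 0.407 across the 402 regions and 0.409 across the others, given as a description. After the strongest, the widest region was the one at 8871661 to 8873592, 1932 bp wide with a strength of 19.5. Some wide regions were weak, such as those at 4087163 to 4088849 (1687 bp, strength 8.22) and 10520312 to 10521928 (1617 bp, strength 6.86), both in replicate 2 alone. The narrowest, at 3855031 to 3855071, was 41 bp wide with a strength of 3.86.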

How the data were processed

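The study mapped MAB-5 by ChIP-seq in 2 ChIP samples with 2 input samples. Groups and replicate numbers came from the sample titles. The authors deposited a combined list besides 1 for each ChIP sample. Per the file headers, positions are on WormBase WS180, and the source column names PeakSeq. The aligner, the PeakSeq settings and how lists were combined: not given in the sources used here. The only measurement was the authors' deposited q-value, so depth is unknown. Columns with values of other samples numbered 0.

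Strength is −log10 q, computed here. Overlapping entries of a list were joined into distinct regions, keeping the smallest q-value. Lists were compared by an overlap of at least 1 bp (alternatives: 50% reciprocal overlap, centres within 200 bp). Shares have exact Clopper-Pearson 95% intervals, covering counting error only. Shares of chromosome III were set against the other chromosomes by two-sided Fisher exact tests with Benjamini-Hochberg adjustment. Named regions were the 20 with the smallest q-values on the chromosome, runs of at least 5 regions with gaps up to 5000 bp, and regions within 20 kb of the strongest. Others named were chosen after their values were seen. The members, lists and tests were chosen with earlier results of these data known. Overlap, joining and tests were tested on simulated data. Tests ran in scipy 1.17.1 under Python 3.11.15, tables in pandas 2.3.3 with numpy 2.4.6, and plots in matplotlib 3.10.9.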

Additional observations from a re-analysis of the deposited data

How the results depend on the processing

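No paired analysis was possible because the input samples have no list here and no test compares samples. Among regions with q values up to the list's median, the share of chromosome III regions found in both replicate lists fell below that elsewhere, at 61.5% against 61.8% (adjusted Fisher exact p = 0.938). The share of short gaps passed 0.05 at 2000 bp (18.2%) and with replicate 1 alone. The share of replicate 2 regions found in replicate 1 did so without entries identical to combined ones (82.7% against 59.4%, adjusted Fisher exact p = 1.55e-05). On chromosome III all such remaining entries overlapped an identical one, and elsewhere 314 of 644 did. Using each replicate list alone, the share found ranged from 36.1 to 96.5%, the middle share from 55.03 to 60.05%, short gaps from 24.3 to 25.6%, the median strength from 6.43 to 6.81, the median width from 405 to 413 bp, and runs of at least 5 regions from 1 to 4. With gaps up to 2000 bp there were 2 such runs. Pearson's r of paired strengths was 0.745 over 63 pairs of entries as deposited and 0.903 without identical entries; the cause was not tested. Of the 20 strongest regions, 17 were in both lists at 50% reciprocal overlap and 16 by centres. Depth is unknown, so a region missing from a list is not shown to be unbound.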

Other observations

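A pair of replicate 1 entries listed on chromosome II, at 7779291 to 7779844 and 7780206 to 7781209, have numbers that fall inside the second site of the strongest chromosome III region, which replicate 1 lists at 7779116 to 7781211. Neither overlaps a replicate 2 entry on chromosome II. Whether their chromosome name is right was not tested.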
